A study of Mus musculus with 12 samples.

Results

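Of the 55487 genes in the deposited counts, 9 genes of the complement system were described, taken by symbol: *C1qa*, *C1qb*, *C1qc*, *C3*, *Cfp*, *Cfb*, *C3ar1*, *C5ar1* and *Itgam*. The choice used gene names alone and no measured value, although earlier results on these data were known when it was made. By their source labels, all 12 RNA sequencing libraries came from BV2, an immortalised line of mouse microglia, the resident macrophages of brain and retina. There were 3 libraries in each of 4 groups: normal glucose medium (NG), normal glucose with CD200Fc at 50 ng/mL (NG+CD200Fc), high glucose medium (HG), and high glucose with CD200Fc at 50 ng/mL (HG+CD200Fc). CD200Fc joins the ligand CD200 to an antibody Fc part and engages CD200R1, an inhibitory receptor of myeloid cells. The sources used here do not give glucose concentrations or times of exposure, and no group received an Fc protein alone or an osmotic control. BV2 is a single transformed line. No source says that replicates were separate cultures, so p-values measure only how far these libraries differ, and that spread may be technical.

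Library totals ran from 21454087 to 31905649 counts. The labels go against each other on the material, because the source is BV2 whereas the treatment protocol describes dissected retinas and a sort for GFP. All 13 microglial and macrophage markers passed the filter on low counts, and their summed level was 4251 to 5184 CPM (counts after scaling each library to an equal total) over the 12 libraries. The markers were far from equal in that sum. In NG, *Cd68* stood at 1639 ± 34.1 CPM and *Csf1r* at 904 ± 15.3 CPM (SD, n = 3). *Cx3cr1* stood at only 3.38 ± 0.848, *Fcrls* at 2.83 ± 0.532 and *P2ry12* at 2.10 ± 0.223 CPM. The photoreceptor markers summed to 30.8 to 43.1 CPM, which was nearly all *Pde6b*. The markers of neutrophils, endothelium, lymphocytes, retinal glia, neurons, fibroblasts and hepatocytes summed to at most 5.89 CPM per list and library. *S100a9* (neutrophils), *Ttr* (hepatocytes) and *Dcn* (fibroblasts) were at 0 in all libraries, while other markers of the same lists were not, as with *S100a8* at 3.63 ± 0.822 CPM in NG (SD, n = 3). Genes of ribosomal RNA took 1.49% of all counts in HG replicate 2, and 0.119% or less elsewhere.

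Complement is a cascade of secreted proteins that marks microbes, debris and synapses. C1q, built from A, B and C chains, starts the classical pathway, which leads to cleavage of C3, and factor B and properdin drive the alternative pathway that amplifies it. Cleavage releases C3a and C5a, which act on the receptors C3AR1 and C5AR1, while fragments of C3 left on a surface are bound by complement receptor 3, an integrin of ITGAM (CD11b) and ITGB2. In brain and retina, microglia are a main source of C1q.

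The 3 C1q genes lie side by side on the minus strand of chromosome 4 within 18675 bases (GRCm38, GENCODE M21): *C1qb* (ENSMUSG00000036905) at chr4:136880129-136886187, *C1qc* (ENSMUSG00000036896) at chr4:136889804-136893065 and *C1qa* (ENSMUSG00000036887) at chr4:136895917-136898803. *C3* (ENSMUSG00000024164) is at chr17:57203970-57228136 on the minus strand. The promoters of *C1qb*, *C1qc* and *C3* are shown, since these genes stand for the C1q cluster and for the component on which the pathways meet, and their RNA levels differed in the same direction in the main comparisons that follow. Each sequence is from RefSeq (GRCm38.p6), has 250 bases before and 50 after the start of the gene on the minus strand, and covers chr4:136886151-136886450, chr4:136892865-136893164 and chr17:57228087-57228386, in that order. Capitals mark every match to 5 motifs searched on both strands.
C1qb: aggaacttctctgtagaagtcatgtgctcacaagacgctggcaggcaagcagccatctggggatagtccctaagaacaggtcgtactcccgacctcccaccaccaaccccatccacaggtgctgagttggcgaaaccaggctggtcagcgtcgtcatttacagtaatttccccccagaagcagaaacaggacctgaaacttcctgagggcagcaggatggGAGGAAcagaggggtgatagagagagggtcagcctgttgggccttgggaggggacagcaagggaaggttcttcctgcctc
C1qc: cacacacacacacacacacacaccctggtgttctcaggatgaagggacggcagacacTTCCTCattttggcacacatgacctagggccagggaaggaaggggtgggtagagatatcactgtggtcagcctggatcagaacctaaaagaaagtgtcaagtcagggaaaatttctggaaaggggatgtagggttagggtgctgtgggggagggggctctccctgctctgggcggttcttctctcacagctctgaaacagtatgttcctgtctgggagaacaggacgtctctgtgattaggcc
C3: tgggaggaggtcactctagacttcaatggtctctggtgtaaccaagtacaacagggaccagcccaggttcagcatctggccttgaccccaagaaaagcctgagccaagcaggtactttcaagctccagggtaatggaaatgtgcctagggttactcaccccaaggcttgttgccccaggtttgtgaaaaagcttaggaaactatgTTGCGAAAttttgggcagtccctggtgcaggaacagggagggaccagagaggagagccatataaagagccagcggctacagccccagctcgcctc

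The motifs were those of interferon-stimulated response elements (GAAANNGAAA), ETS-IRF composites (GGAANNGAAA), gamma-activated sites (TTCNNNGAA), C/EBP factors (TTNCGNAA) and PU.1 (GAGGAA, which on the other strand reads TTCCTC). They were present in 3.44%, 2.72%, 8.3%, 2.47% and 28.3%, respectively, of 32851 RefSeq promoters of the same length. An overlap between the motifs is possible, as the ETS-IRF and interferon motifs share their final bases. In *C1qb* the purine-rich PU.1 letters begin at base -30 from the start, and in *C1qc* they begin at -193 on the other strand. In *C3* the C/EBP letters TTGCGAAA begin at -45. The first 3 motifs had no match in any of the 7 genes of the set with a RefSeq promoter here. *Cfp* held 2 and *Itgam* 3 matches to the PU.1 letters, and *C3ar1* and *C5ar1* held none of the 5 motifs. These matches describe letters only and no binding was measured.

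The remaining members are *Cfp* (ENSMUSG00000001128, chrX:20925454-20931555, minus strand), which encodes properdin, and *Cfb* (ENSMUSG00000090231, chr17:34856374-34862518, minus strand), which encodes factor B. The receptor genes are *C3ar1* (ENSMUSG00000040552, chr6:122847138-122856161, minus strand), *C5ar1* (ENSMUSG00000049130, chr7:16246743-16259540, minus strand) and *Itgam* (ENSMUSG00000030786, chr7:128062640-128118491, plus strand). In GENCODE M21, 68.7% of the exon bases of *Itgam* also belong to Gm49368, which held 8 counts in all 12 libraries together. For *Cfb*, 79.5% of the exon bases also belong to Gm20547, which held 0 counts. The sources used here do not say how reads in shared exons were counted, so the levels of *Itgam* and *Cfb* are uncertain. If such reads were left out, both levels are understated. The other 7 members share no exon base with another gene.

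To compare levels between genes, CPM were divided by exon length in kilobases (CPM per kb). In NG, *C5ar1* had the highest level, 85.3 ± 2.93 CPM per kb (SD, n = 3), followed by *Cfp* with 75.1 ± 3.51, *C3ar1* with 69.4 ± 3.12 and *C3* with 42.6 ± 2.55. *C1qc* with 28.98 ± 0.996, *C1qa* with 28.8 ± 1.63 and *C1qb* with 22.4 ± 0.850 came next, and *Itgam* stood at 3.93 ± 0.592 CPM per kb. For *Itgam* the exon length includes the shared bases, so its place in the order is uncertain. The libraries of *Cfp* and *C3ar1* overlapped, as did those of *C1qc* and *C1qa*, so those neighbours did not differ beyond their spread. In HG the order changed. *Cfp* was highest at 101 ± 6.75 CPM per kb, *C5ar1* (88.9 ± 5.01) overlapped *C3ar1* (82.8 ± 1.65), which overlapped *C3* (80.6 ± 1.05). *C1qb* at 46.95 ± 4.53 had libraries above those of *C1qa* (38.2 ± 2.49) but overlapped *C1qc* (37.5 ± 3.97), as did *C1qa*. Overlap here compares ranges over libraries. Within each HG library *C5ar1* was above *C3ar1*, *C3ar1* above *C3*, and *C1qb* above *C1qc*.

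In high glucose without CD200Fc, 7 of the 8 members that could be tested were higher than in normal glucose, and with CD200Fc added to high glucose the same 7 were lower again. *C1qb* and *C3* had the largest differences between HG and NG, *C5ar1* did not pass in either comparison, and *Cfb* was too low to test. The threshold was an adjusted p of 0.05 over the 19182 genes tested with edgeR. In HG vs NG 11.7% of all genes tested passed as higher and 12.9% as lower, and in HG+CD200Fc vs HG 9.46% passed as higher and 8.30% as lower. The same 7 members had 3 libraries per group that did not overlap, in both comparisons, which held for 19.9% of all genes tested in the higher direction for HG vs NG and for 16.0% in the lower direction for HG+CD200Fc vs HG. The median log2 fold change of the 8 members was 0.42 in HG vs NG, where that of all genes was 0.0206, and -0.69 in HG+CD200Fc vs HG, where that of all genes was -0.0209. The 2 comparisons share the HG libraries, so their opposite signs are not independent of each other. In bulk RNA from cultures, fewer cells expressing a gene and less RNA per cell cannot be told apart.

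**Figure D1:**
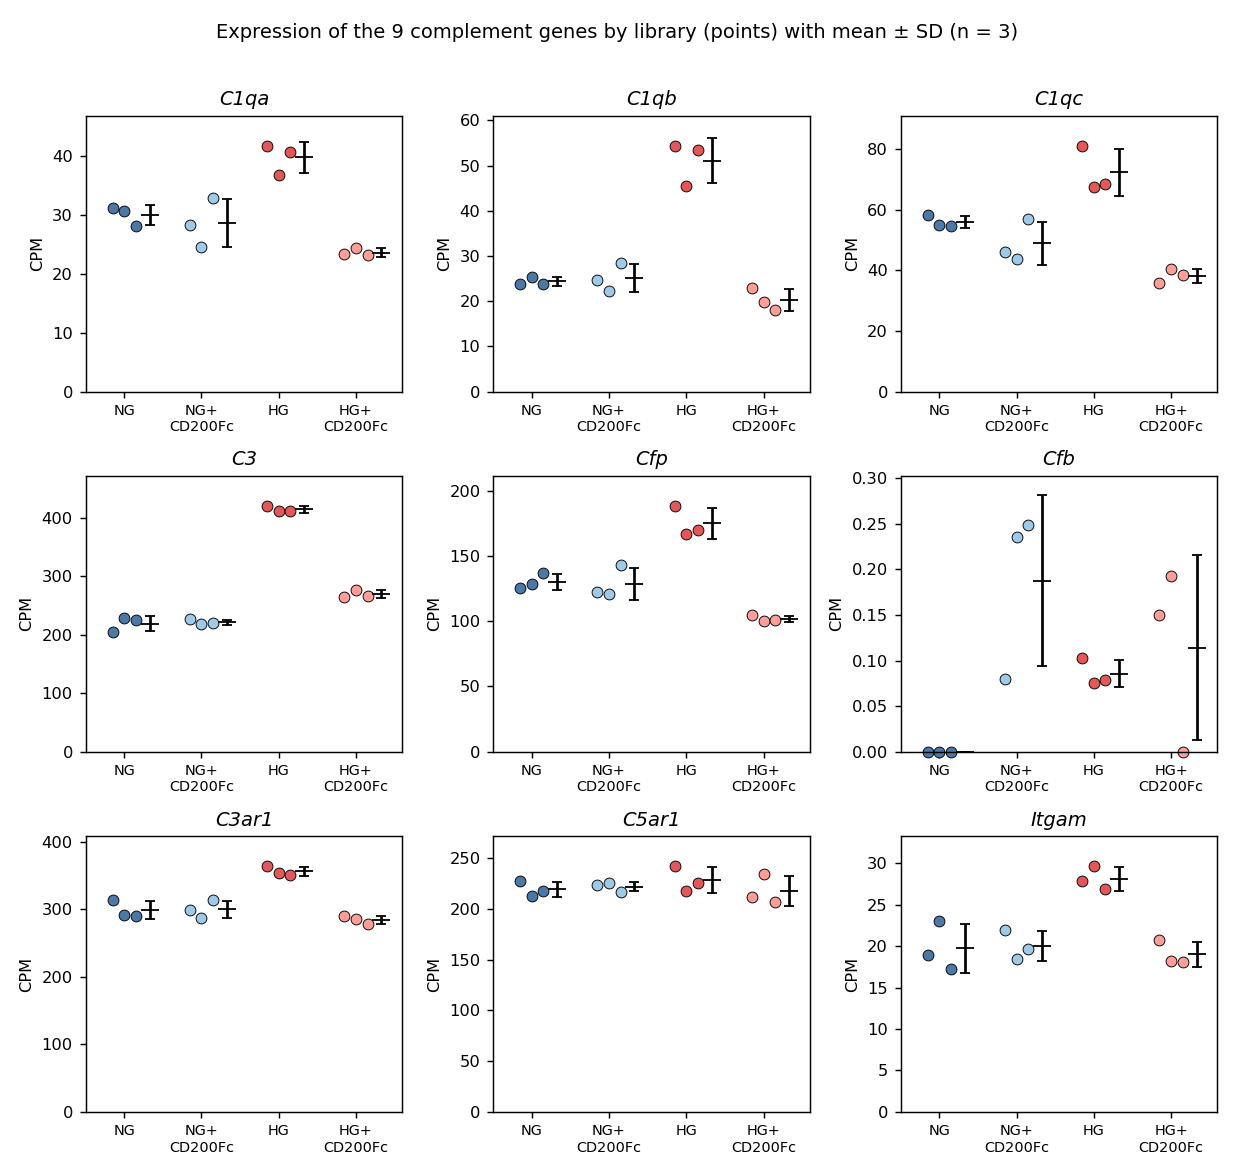
Expression of the 9 genes in CPM (vertical axes, from 0) in the 12 libraries, as points by group, with the mean and SD (n = 3) beside them. For 7 of the genes the 3 HG libraries lie above those of every other group, whereas *C5ar1* shows no such step and *Cfb* stays under 0.25 CPM. Of all genes tested, 19.9% had HG libraries above those of NG, and 16.0% had them above those of HG+CD200Fc. The share with HG above every other group was not computed.

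*C1qb*, the gene of the B chain, moved the most. It stood at 23.8, 25.4 and 23.9 CPM in the 3 NG libraries, at 24.7, 22.3 and 28.4 CPM in NG+CD200Fc, at 54.4, 45.4 and 53.4 CPM in HG, and at 22.8, 19.7 and 18.1 CPM in HG+CD200Fc. The 3 HG libraries were high and the other 9 were low, with no overlap. The log2 fold change was 1.07 in HG vs NG (SE 0.096, adjusted p = 4.72e-09) and -1.34 in HG+CD200Fc vs HG (SE 0.0977, adjusted p = 2.15e-10).

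*C1qa*, the gene of the A chain, stood at 31.2, 30.7 and 28.1 CPM in NG and at 28.3, 24.6 and 32.8 CPM in NG+CD200Fc. It stood at 41.7, 36.8 and 40.7 CPM in HG and at 23.3, 24.4 and 23.1 CPM in HG+CD200Fc. HG was again the high group, and the HG+CD200Fc libraries lay below all the others. The log2 fold change was 0.41 in HG vs NG (SE 0.0897, adjusted p = 0.00134) and -0.75 in HG+CD200Fc vs HG (SE 0.0914, adjusted p = 9.08e-07).

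*C1qc*, the gene of the C chain, stood at 58.2, 54.96 and 54.8 CPM in NG and at 46.0, 43.9 and 56.9 CPM in NG+CD200Fc. It stood at 81.2, 67.4 and 68.5 CPM in HG and at 35.7, 40.4 and 38.6 CPM in HG+CD200Fc. The HG libraries were above, and the HG+CD200Fc libraries below, those of both NG groups. The log2 fold change was 0.37 in HG vs NG (SE 0.085, adjusted p = 0.0022) and -0.92 in HG+CD200Fc vs HG (SE 0.0871, adjusted p = 4.83e-08). In NG+CD200Fc, replicate 3 had the highest value of its group for all 3 chains.

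The proportion of the chains was compared as well. Per exon length, the ratio of *C1qb* to *C1qa* was 0.728, 0.792 and 0.813 in the NG libraries, 0.833, 0.868 and 0.827 in those of NG+CD200Fc, 1.25, 1.18 and 1.26 in HG, and 0.936, 0.772 and 0.747 in HG+CD200Fc. *C1qb* was below *C1qa* in the 9 libraries of the other groups and above it in the 3 HG libraries. The ratio of *C1qb* to *C1qc* was 0.774 ± 0.048 in NG, 0.914 ± 0.0341 with CD200Fc in normal glucose, 1.26 ± 0.111 in HG and 0.944 ± 0.167 in HG+CD200Fc (SD, n = 3). That of *C1qc* to *C1qa* was 1.006 ± 0.0434, 0.923 ± 0.0436, 0.980 ± 0.0705 and 0.872 ± 0.0417, in the same order of groups. The exact two-sided permutation p was 0.1, the smallest that 3 against 3 libraries allow, in 10 of 15 tests (0.15 after adjustment over the 15). These were HG+CD200Fc vs HG and NG+CD200Fc vs NG for all 3 ratios, HG vs NG for both ratios with *C1qb*, and HG+CD200Fc vs NG for both ratios with *C1qc*. The sizes differed: on the log2 scale *C1qb* to *C1qa* differed by 0.66 in HG vs NG, by -0.59 in HG+CD200Fc vs HG and by 0.12 in NG+CD200Fc vs NG, and *C1qc* to *C1qa* by -0.04 (exact permutation p = 0.6), -0.17 and -0.12.

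**Figure D2:**
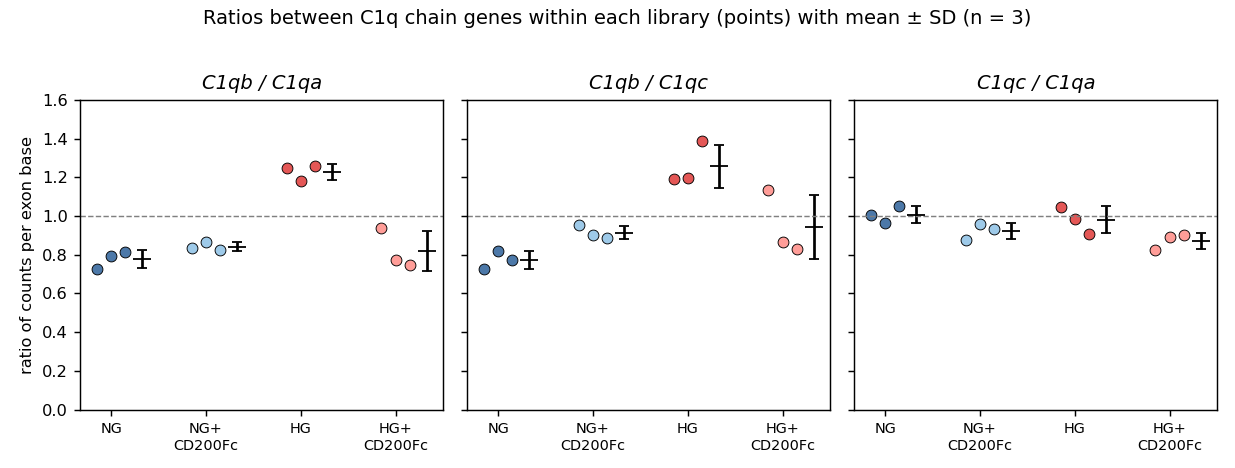
Ratios of expression per exon length between the C1q chain genes (vertical axes, no unit) in each library, by group, with mean and SD (n = 3). *C1qb* to *C1qa* lies at 1.18 to 1.26 in HG and at most at 0.936 in the other groups, and *C1qc* to *C1qa* runs from 0.824 to 1.05 over all libraries.

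*C3*, on whose cleavage the pathways meet, had the smallest SE of the members relative to its log2 fold change in HG vs NG. It stood at 204, 228 and 225 CPM in NG, at 226, 218 and 219.6 CPM with CD200Fc in normal glucose, at 421, 411 and 411 CPM in HG, and at 264, 277 and 266 CPM in HG+CD200Fc. HG was highest, HG+CD200Fc was intermediate, and the NG groups overlapped each other. The log2 fold change was 0.92 in HG vs NG (SE 0.0523, adjusted p = 7.14e-13) and -0.62 in HG+CD200Fc vs HG (SE 0.0521, adjusted p = 1.9e-09).

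*Cfp* encodes properdin, which stabilises the C3 convertase of the alternative pathway. It stood at 125, 128.5 and 137 CPM in NG, at 122, 121 and 143 CPM with CD200Fc in normal glucose, at 189, 167 and 170.2 CPM in HG, and at 104, 99.8 and 101 CPM in HG+CD200Fc. The HG libraries were the highest and the HG+CD200Fc libraries the lowest, without overlap with the NG groups. The log2 fold change was 0.43 in HG vs NG (SE 0.0642, adjusted p = 1.7e-05) and -0.78 in HG+CD200Fc vs HG (SE 0.0649, adjusted p = 1.6e-09).

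*Cfb*, whose product supplies the protease of the alternative C3 convertase, was near the limit of detection. It had 0, 0 and 0 counts in NG, 2, 6 and 8 counts with CD200Fc in normal glucose, 3, 2 and 2 counts in HG, and 4, 4 and 0 counts in HG+CD200Fc. The 0 counts of NG allow a level of up to 0.0407 CPM (3 counts over the group, counting error only). The NG+CD200Fc libraries, at 0.0793, 0.235 and 0.248 CPM, lay above that limit, which leaves out any spread beyond counting error. The groups are not ordered here, because *Cfb* did not pass the filter on low counts. The shared exons described above add to the uncertainty.

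Among the receptors, *C3ar1* for C3a and *Itgam* of complement receptor 3 passed in both comparisons, and *C5ar1* for C5a in neither. *C3ar1* stood at 314, 293 and 289.96 CPM in NG, at 299, 288 and 314 CPM with CD200Fc in normal glucose, at 365, 353 and 352 CPM in HG, and at 290.1, 287 and 278 CPM in HG+CD200Fc. The HG libraries were above all others. Its log2 fold change was 0.25 in HG vs NG (SE 0.0516, adjusted p = 0.000572) and -0.32 in HG+CD200Fc vs HG (SE 0.0516, adjusted p = 4.22e-05).

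*Itgam* stood at 18.9, 23.0 and 17.3 CPM in NG, at 21.97, 18.4 and 19.7 CPM with CD200Fc in normal glucose, at 27.9, 29.7 and 26.9 CPM in HG, and at 20.8, 18.2 and 18.1 CPM in HG+CD200Fc. HG was above the other groups, which overlapped one another. Its log2 fold change was 0.51 in HG vs NG (SE 0.102, adjusted p = 0.000497) and -0.56 in HG+CD200Fc vs HG (SE 0.103, adjusted p = 0.000214). *C5ar1* stood at 228, 213 and 217 CPM in NG, at 223, 226 and 217 CPM with CD200Fc in normal glucose, at 243, 217 and 226 CPM in HG, and at 211, 234 and 207 CPM in HG+CD200Fc. All 4 groups overlapped. The 95% interval of its log2 fold change was -0.06 to 0.18 in HG vs NG and -0.19 to 0.05 in HG+CD200Fc vs HG.

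**Figure D3:**
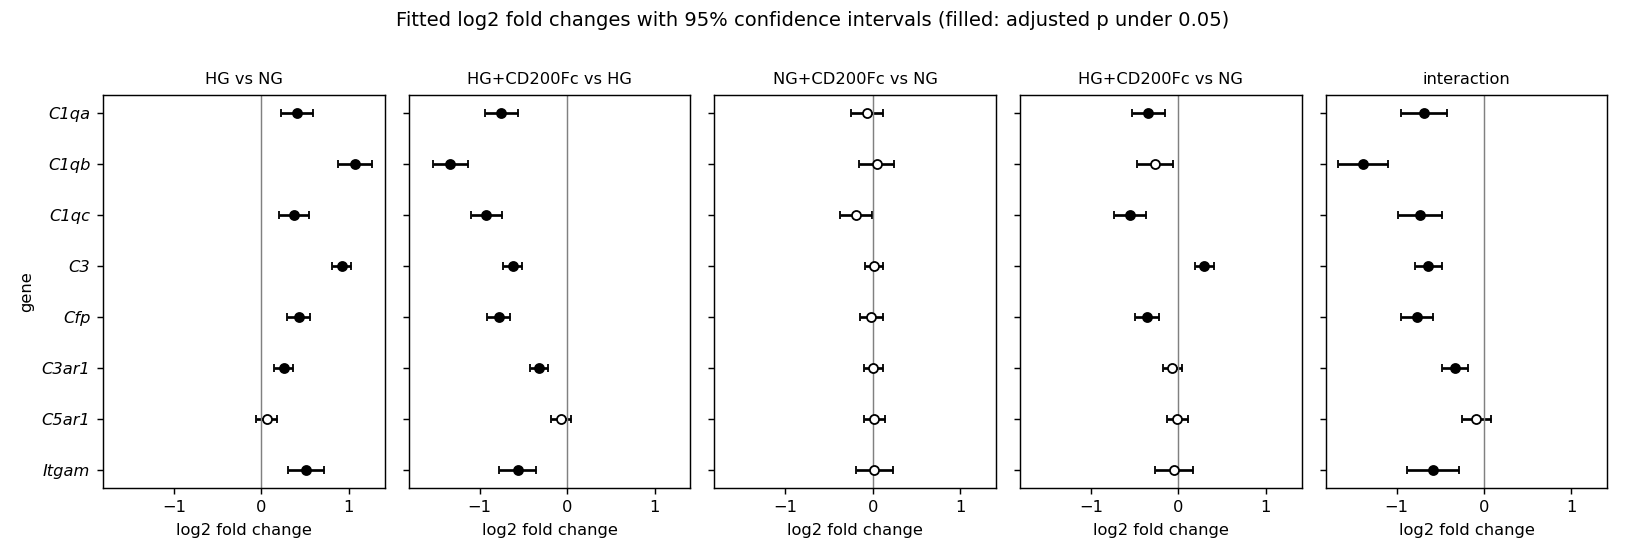
Log2 fold changes of the 8 tested genes in the comparisons of the edgeR model, with 95% intervals, where filled points passed. In HG vs NG 7 genes lie above 0 and in HG+CD200Fc vs HG the same 7 lie below 0, and in NG+CD200Fc vs NG no gene passed the test.

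The question whether CD200Fc moved these genes without high glucose was addressed with NG+CD200Fc vs NG. None of the 8 members passed (edgeR), and 1, *C1qc*, had an unadjusted p under 0.05, at -0.19 on the log2 scale (SE 0.0859, unadjusted p of the edgeR quasi-likelihood fit = 0.0356, adjusted p = 0.816). The log2 fold changes of the other 7 lay between -0.07 and 0.05. For *C3* the 95% interval was -0.09 to 0.12, for *C1qb* it was -0.15 to 0.25, and for *C1qa* -0.25 to 0.12. Of all genes tested 0% passed in this comparison (0 of 19182), while 1147 had an unadjusted p under 0.05, DESeq2 called 0 and limma voom called 1.

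The interaction of the model tests the difference itself between the CD200Fc effects in high and in normal glucose. It was negative and passed for 7 of 8 members, where 3.58% of all genes tested passed in that direction. It was -1.38 for *C1qb* (SE 0.138, adjusted p = 2.03e-07), -0.64 for *C3* (SE 0.0736, adjusted p = 1.67e-06) and -0.77 for *Cfp* (SE 0.0913, adjusted p = 2.49e-06), on the log2 scale. *Itgam*, at -0.58 (adjusted p = 0.0122), had the largest of these adjusted p: the adjusted p was 0.0594 without NG replicate 3 and 0.0534 without NG+CD200Fc replicate 1. For *C5ar1* the interaction was -0.09 (SE 0.0803, adjusted p = 0.61).

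Whether HG+CD200Fc returned to the level of NG differed by gene. *C3* remained higher than in NG, at 0.30 on the log2 scale (SE 0.0522, adjusted p = 0.000263). *C1qa* was lower than in NG at -0.35 (SE 0.0926, adjusted p = 0.00863), *C1qc* at -0.55 (SE 0.0878, adjusted p = 0.000153) and *Cfp* at -0.36 (SE 0.065, adjusted p = 0.000351). Thus 1 member passed as higher and 3 as lower, where 9.56% and 10.8% of all genes tested passed as higher and lower. *C1qb* was at -0.27 (SE 0.1, adjusted p = 0.0593) and did not pass, although its libraries did not overlap. For the receptors the 95% intervals held 0, at -0.18 to 0.04 for *C3ar1*, -0.13 to 0.11 for *C5ar1* and -0.27 to 0.16 for *Itgam*.

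With CD200Fc in both media, *C3* was higher in high glucose, at 0.28 on the log2 scale (SE 0.0521, adjusted p = 0.00255). *Cfp* was lower at -0.34 (SE 0.0649, adjusted p = 0.00274), *C1qc* at -0.36 (SE 0.0877, adjusted p = 0.0139) and *C1qb* at -0.31 (SE 0.0995, adjusted p = 0.0487), while *C1qa* was at -0.28 (adjusted p = 0.0593). The libraries of *C1qb* overlapped, and its call was lost in 11 of 20 alternatives, with an adjusted p of 0.00839 to 0.322. The signs for the C1q genes and *Cfp* were opposite to those in HG vs NG, whereas that of *C3* was the same. Of all genes tested 4.65% passed as higher and 3.65% as lower. Between 2 and 5 members passed when 1 library was left out, with 2 without NG+CD200Fc replicate 3 or HG+CD200Fc replicate 3.

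The authors' deposited table holds 8 of the 9 members and not *Cfb*. In the authors' deposited table *C3* has a log2 fold change of 0.93 in HG vs NG and *C1qb* one of -0.26 in HG+CD200Fc vs NG, with a false discovery rate of 0.0661.

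Other genes of complement, taken from lists by role, gave the setting of the members. Of 15 other components of the classical and lectin pathways, 10 were tested, and 5 were higher in HG vs NG and 5 lower in HG+CD200Fc vs HG. The shares over all genes in these directions were 11.7% and 8.30%. The median log2 fold changes of the 10 were 0.83 and -0.82, against 0.0206 and -0.0209 over all genes. These genes were low: *C1ra*, a protease of the C1 complex, had 5.40 ± 0.239 CPM in NG, 4.70 ± 0.363 with CD200Fc in normal glucose, 8.23 ± 0.225 in HG and 4.32 ± 0.654 in HG+CD200Fc (SD, n = 3). Its log2 fold change was 0.61 in HG vs NG (SE 0.152, adjusted p = 0.00409) and -0.93 in HG+CD200Fc vs HG (SE 0.156, adjusted p = 8.35e-05). *C4a* passed as higher in HG vs NG, at 0.77 (SE 0.179, adjusted p = 0.00199), and in HG+CD200Fc vs HG was at -0.16 (SE 0.174, adjusted p = 0.61). *Masp1*, a lectin pathway protease, rose by 1.00 in HG vs NG (SE 0.282, adjusted p = 0.0096) and was at -0.35 in HG+CD200Fc vs HG (SE 0.272, adjusted p = 0.438). The remaining 2 that passed as higher were *C1rb*, at 1.07 (SE 0.382, adjusted p = 0.0405), and *C1s1*, at 1.46 (SE 0.528, adjusted p = 0.0438). Lower in HG+CD200Fc vs HG, beside *C1ra*, were *C1rb* at -1.40 (SE 0.395, adjusted p = 0.013), *C1s1* at -2.51 (SE 0.588, adjusted p = 0.00293), *C4b* and *C1s2*, where *C1s1*, *C1s2* and *C4b* were named after their values were seen. *C1s1* was at 0.364 ± 0.0954 CPM in NG and 1.01 ± 0.611 in HG. *C1ra* and *C1rb*, *C1s1* and *C1s2*, and *C4a* and *C4b* are close copies, so reads may have been split between them. *Fcnb*, *Mbl1*, *Mbl2* and *Colec10* were at 0 in all 12 libraries.

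Of 8 other components of the alternative and terminal pathways only *C8g* passed the filter, and *C8a* and *C8b* were at 0. Of 14 other receptors and receptor partners, 12 were tested. In HG vs NG *Itgb2*, the partner chain of ITGAM, was the 1 that rose, by 0.14 (SE 0.0491, adjusted p = 0.034), and *C1qbp*, a mitochondrial protein that can bind C1q, was the 1 that fell, by 0.27 (SE 0.0513, adjusted p = 0.000236). In HG+CD200Fc vs HG *Itgb2* fell by 0.14 (SE 0.0492, adjusted p = 0.0428) and *C1qbp* rose by 0.37 (SE 0.0513, adjusted p = 5.5e-06). Of the 12, 1 in each direction in HG vs NG is near the shares over all genes (11.7% higher and 12.9% lower). In HG+CD200Fc vs HG, where these shares were 9.46% and 8.30%, 3 were higher (*C1qbp*, *Lrp1* and *Itgal*) and 2 lower (*Itgb2* and *Calr*, the latter named after its value was seen). *Itgb2* stood at 262 ± 3.17 CPM in NG and 289 ± 6.87 CPM in HG, a smaller step on the log2 scale than that of *Itgam*. The difference between those genes was not tested.

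Of 19 regulators, which limit complement on host cells, 9 were tested. In HG vs NG *Clu* was higher at 0.34 (SE 0.113, adjusted p = 0.0264) and *Cr1l* lower at -0.26 (SE 0.0887, adjusted p = 0.0312). For 9 genes, 1 in each direction is near the shares over all genes (11.7% higher and 12.9% lower). In HG+CD200Fc vs HG 0 of the 9 passed with edgeR, 3 had an unadjusted p under 0.05, DESeq2 called 0 and limma voom called 1. Of 16 transcription factors with known roles at complement genes, 7 were higher and 1 lower in HG vs NG, and 5 were higher and 4 lower in HG+CD200Fc vs HG, beside shares over all genes of 11.7% and 12.9% in the former and 9.46% and 8.30% in the latter. *Irf7*, an interferon-responsive factor, stood at 73.5 ± 3.05 CPM in NG, 70.6 ± 5.88 with CD200Fc in normal glucose, 166 ± 9.02 in HG and 73.8 ± 2.24 in HG+CD200Fc, and *Stat2*, which carries interferon signals to the nucleus, at 30.2 ± 2.04, 32.01 ± 0.438, 70.9 ± 2.91 and 36.6 ± 3.08 CPM (SD, n = 3). Both passed in HG vs NG, at 1.18 (SE 0.0634, adjusted p = 2.6e-13) and 1.23 (SE 0.0734, adjusted p = 1.87e-12), and in HG+CD200Fc vs HG, at -1.17 (SE 0.0635, adjusted p = 6.85e-13) and -0.95 (SE 0.0727, adjusted p = 4.24e-10).

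**Figure D4:**
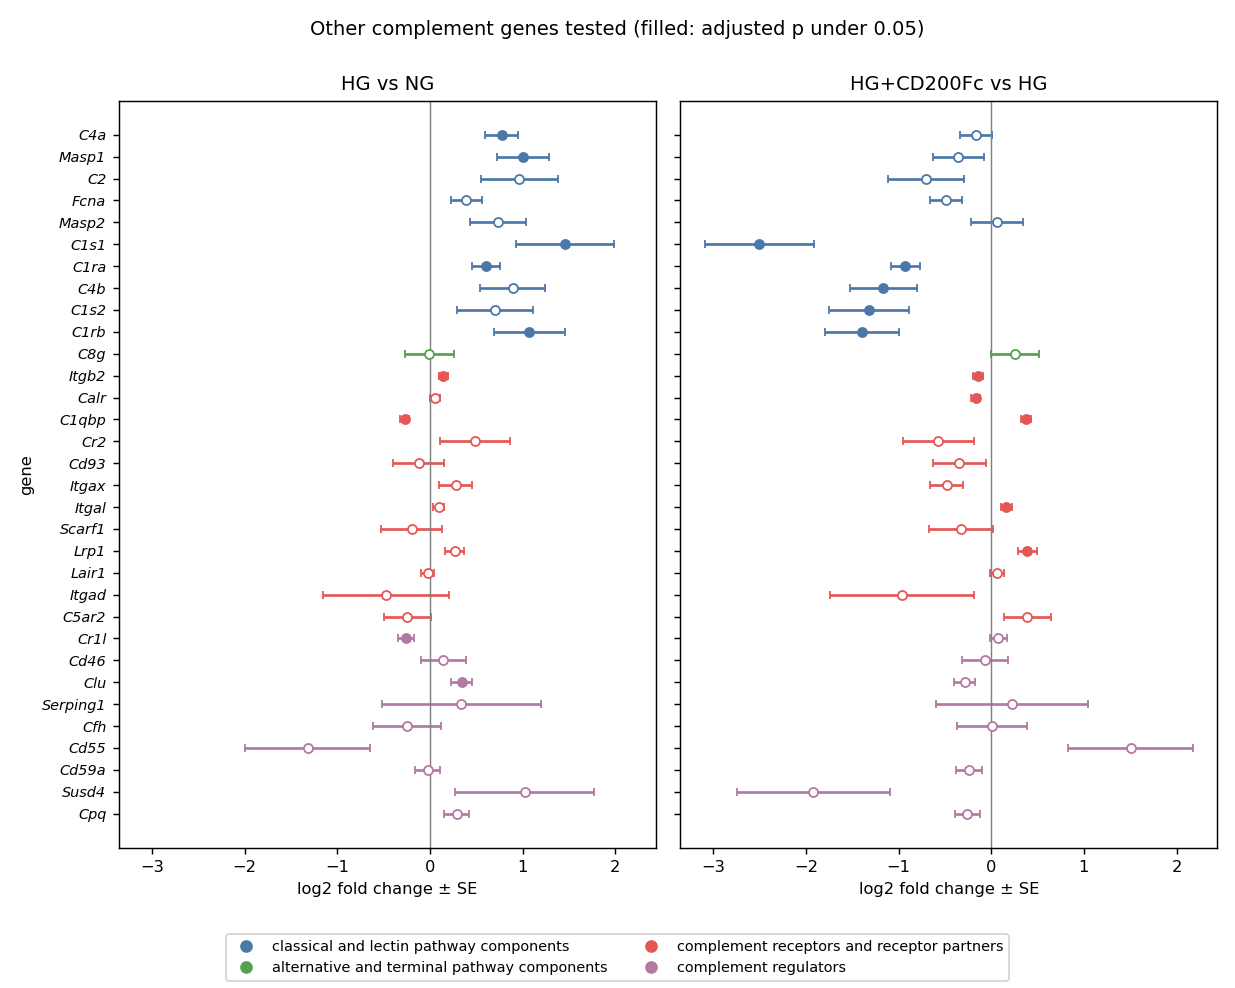
Log2 fold changes of the tested genes of the lists in HG vs NG and in HG+CD200Fc vs HG, by list. The classical and lectin pathway genes have medians of 0.83 and -0.82, and the receptors and partners have 0.01 and -0.16. Bars are SE, and filled points passed.

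The genes whose level over the 12 libraries was most like the mean profile of the C1q genes were ranked by the root mean square of the difference in centred log2 CPM, among 11075 genes, where a gene at a constant level would have 0.371, the root mean square of the profile itself. The nearest were *Gngt2* (0.0594), *Lgals9* (0.0884), *Serpinb9b* (0.0958), *Slc31a2* (0.0973) and *Ifi211* (0.0998). *Gngt2* stood at 38.8 ± 1.36 CPM in NG, 35.9 ± 3.55 with CD200Fc in normal glucose, 57.1 ± 5.86 in HG and 31.1 ± 0.444 in HG+CD200Fc (SD, n = 3). Its HG+CD200Fc mean, like those of the C1q genes, was below its NG mean. For *C3*, whose profile had a root mean square of 0.374, the nearest were *Rasa4* (0.0688), *Helz2* (0.0719), *Rnf213* (0.0758), *Ikbke* (0.0776) and *Kdm5b* (0.0832). *Rasa4* stood at 77.8 ± 2.46 CPM in NG, 82.7 ± 3.64 with CD200Fc in normal glucose, 148 ± 2.95 in HG and 93.2 ± 3.05 in HG+CD200Fc, which kept it, like *C3*, above NG. *Gngt2* and *Rasa4* were chosen by likeness over these same libraries, so the shared side of NG is no separate result.

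Markers of the cells themselves moved as well. Of the 13 microglial and macrophage markers 4 were higher and 4 lower in HG vs NG, beside shares over all genes of 11.7% and 12.9%. In HG+CD200Fc vs HG 1 was higher and 5 lower, beside shares of 9.46% and 8.30%. The sum of these markers ran from 4868 to 5110 CPM in NG, 4616 to 4760 with CD200Fc in normal glucose, 4568 to 5184 in HG and 4251 to 4463 in HG+CD200Fc. Their part in the results on the complement genes was not tested. The endothelial markers summed to 3.78 to 4.195 CPM in NG, 3.17 to 4.84 with CD200Fc in normal glucose, 5.56 to 5.89 in HG and 3.90 to 5.31 in HG+CD200Fc, and 1 passed as higher in HG vs NG. The lymphocyte markers summed to 1.82 to 1.96, 2.22 to 2.42, 2.88 to 3.82 and 1.88 to 2.37 CPM in the same order, with 1 higher in HG vs NG and 1 lower in HG+CD200Fc vs HG. The neutrophil markers summed to 3.13 to 4.62, 2.59 to 3.67, 1.51 to 2.74 and 2.28 to 2.75 CPM, with 1 lower in HG vs NG. The markers of retinal glia summed to 1.995 to 2.71, 2.47 to 3.23, 2.81 to 3.67 and 2.13 to 3.03 CPM, with 2 higher and 1 lower in HG vs NG. Of the photoreceptor markers 1 was lower in HG vs NG and 1 higher in HG+CD200Fc vs HG. Only 2 endothelial, 3 lymphocyte, 2 neutrophil, 3 retinal glia and 4 photoreceptor markers passed the filter on low counts. These are too few to set beside the shares over all genes. The part of these lists was not tested either. The 7 members passed in HG vs NG and in HG+CD200Fc vs HG also without HG replicate 2, the library with more ribosomal RNA.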

How the data were processed

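Per the labels' protocols, ribosomal RNA was removed with RNase H and libraries were primed with random hexamers. The authors deposited raw counts per gene, not normalized. As to software, the submitters' processing notes name STAR, featureCounts, Salmon, edgeR and limma with GRCm38, and give neither the annotation release nor whether counting used strand. The authors' deposited table of comparisons gives log2 fold changes with p-values (p-value and false discovery rate).

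Of 55774 lines, 287 repeated gene IDs with identical counts were dropped. After filterByExpr by group, 19182 genes were tested. The means of the 4 groups were estimated in 1 robust quasi-likelihood fit over the 12 libraries (edgeR 4.0.16, TMM scaling, R 4.3.3). The biological coefficient of variation was 0.0908. Benjamini-Hochberg adjustment was over all genes within each of 6 contrasts, with a threshold of 0.05. CPM use library totals after TMM scaling. Standard errors are the log2 fold change divided by the square root of F, and intervals use 95% of the t distribution. Reads carry no molecular identifiers, so limits from counts cover counting error only.

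All members were eligible to be named, and of each list up to 4 tested genes with the smallest HG vs NG p and any gene at 0. Some genes of the transcription factor list are not reported here by name. Members and lists were chosen with earlier results of these data known. The fit was also run on simulated data with known fold changes, and the outcome is not given here. That simulation gave each gene the same spread in all groups, so it does not cover differences in spread between groups. Alternatives were DESeq2 size factors, upper quartile scaling, no filter, a filter of 10 counts with 1 CPM in 3 libraries, the DESeq2 test (1.42.0), voom with quality weights (limma 3.58.1), only the groups compared, a replicate block, and each library left out.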

Additional observations from a re-analysis of the deposited data

Results flagged for a closer look

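For 7 members the difference made by CD200Fc was itself different between the glucose levels, by the interaction term of the edgeR model, with HG+CD200Fc vs HG more negative than NG+CD200Fc vs NG. On the log2 scale the interaction was -1.38 for *C1qb*, -0.77 for *Cfp*, -0.73 for *C1qc*, -0.69 for *C1qa*, -0.64 for *C3*, -0.58 for *Itgam* and -0.33 for *C3ar1*. The adjusted p-values ran from 2.03e-07 for *C1qb* to 0.0122 for *Itgam*. Of all genes tested 3.58% passed in that direction. These are the interaction results already given above.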

How the results depend on the processing

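In HG vs NG and in HG+CD200Fc vs HG the 7 members that passed did so under all 20 alternatives. For the interaction 6 of the 7 passed under all 19 and *Itgam* under 17. Of 952 alternative values for the members, 898 kept direction and call, 16 were lost, 16 were gained and 22 changed sign, all of values that had not passed. Against NG+CD200Fc, HG+CD200Fc had 1593 genes past the threshold, 2597 with limma voom, and 277 (without HG+CD200Fc replicate 2) to 2288 with 1 library left out, and 4 members, or 2 to 5 with 1 library left out. Of those genes 892 were higher and 701 lower, and 1115 and 494 with upper quartile scaling. Against NG, HG+CD200Fc had 3903 genes past the threshold, 2217 to 4217 with 1 library left out, of which 1834 were higher and 2069 lower, and 2264 and 1602 with upper quartile scaling. For NG+CD200Fc vs NG, 0 genes became 21 with no filter, 1 with limma voom, 9 with only the groups compared, and 0 to 8 with 1 library left out (8 without HG replicate 1). The cause was not tested.

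*C1qb* in HG+CD200Fc vs NG passed under 9 of 20 alternatives, with adjusted p from 0.017 to 0.261, and in HG+CD200Fc vs NG+CD200Fc under 9 of 20 (0.00839 to 0.322). *C1qa* in HG+CD200Fc vs NG+CD200Fc passed under 7 of 20 (0.00659 to 0.422), and *C1qc* under 17 of 20, not without NG+CD200Fc replicate 3, HG+CD200Fc replicate 1 or HG+CD200Fc replicate 3. The labels link same-numbered libraries by the number alone. Their deviations had correlations of -0.069 to 0.184 over 18 pairs, of which 5 were above 0.1. Of the 12 libraries, 6 correlated best with their own number. Pairs of different number ran from -0.207 (NG replicate 2 with HG replicate 1) to 0.244 (NG+CD200Fc replicate 3 with HG replicate 1). Whether same-numbered libraries shared a batch cannot be told from these values. With a replicate block 5258 genes passed in HG vs NG, 3842 in HG+CD200Fc vs HG, 4440 in HG+CD200Fc vs NG, 2314 in HG+CD200Fc vs NG+CD200Fc, 1723 in the interaction and 2 in NG+CD200Fc vs NG. It added *C1qb* to the members that passed in HG+CD200Fc vs NG and *C1qa* in HG+CD200Fc vs NG+CD200Fc (5 in each) and changed no other call of a member.

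Changes of sign were among values near 0. With upper quartile scaling *C5ar1* was at 0.0057 in HG+CD200Fc vs NG+CD200Fc and 0.0313 in HG+CD200Fc vs NG. With 1 library left out, its log2 fold changes ran from -0.087 to 0.0041 and from -0.0713 to 0.0199 in these comparisons and from -0.0056 to 0.0926 in HG vs NG, and *Itgam* in HG+CD200Fc vs NG ran from -0.1521 to 0.0722. In NG+CD200Fc vs NG the ranges were -0.1921 to 0.0287 for *C1qa*, -0.0633 to 0.1242 for *C1qb*, -0.0359 to 0.0447 for *C3*, -0.1099 to 0.0241 for *Cfp*, -0.0379 to 0.0415 for *C3ar1*, -0.0027 to 0.043 for *C5ar1* and -0.072 to 0.1457 for *Itgam*. Depth limits *Cfb*, with at most 16 counts summed over a group.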
